A study of Mus musculus with 6 samples.

Results

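Cadherins and protocadherins were described in single cells of the mouse striatum. The members are all genes of the count table whose symbol is Cdh followed by a number, or starts with Pcdh. They number 92 of 32285 genes, with 23 *Cdh* and 69 *Pcdh* genes. Of the *Pcdh* genes, 57 belong to the 3 clustered families on chromosome 18, with 14 *Pcdha*, 22 *Pcdhb* and 21 *Pcdhg* genes.

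Cadherins are membrane proteins that bind the same or related cadherins on a neighbouring cell through repeated extracellular domains that need calcium. Type I and type II cadherins are tied to actin inside the cell by catenins, and they hold tissues together and sort cells. Clustered protocadherins are expressed in different combinations in single cells, with many promoters upstream of shared last exons in the alpha and gamma families, and they are best known for self-recognition of neurites and for astrocyte-neuron contacts. Delta-protocadherins, the non-clustered group, act in adhesion, migration and wiring.

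The cells came from the striatum of wild-type male C57BL/6 mice aged 3 days (P3), an age of immature astrocytes, or 3 months (3m), an age of mature ones, with no genetic change or treatment at either age. They were enriched with magnetic beads against the astrocyte antigen ACSA2 and profiled as 3 separate droplet libraries at each age. The comparison asks what changes as astrocytes mature. Cells of other types also came through the enrichment. Levels are therefore given for cells that the study annotated as one type, except in the sums over all barcodes. In these types the highest of the marker lists was the one of their name, except that haemoglobin genes outweighed the endothelial markers in endothelial clusters 7, 12 and 17. In cluster 12 astrocyte markers (3708 CPM) also exceeded the endothelial ones (1118 CPM), against its name, and no levels are given for it. The clusters numbered 20, 21 and 23, which the study left unidentified, are not described further. The astroglial sums per library include the 96 cells of astroglial cluster 19, which had 2397 CPM of multiciliated markers.

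The study annotated 14373 of 16690 barcodes, and 9992 of these were astroglial, from 213 to 546 in each 3m library and from 1985 to 3786 in each P3 library. Their summed counts came to between 1157485 and 1843998 UMIs (unique molecular identifiers, each standing for 1 captured transcript) per 3m library and between 22327104 and 30617140 per P3 library, so that low genes were measured less precisely at 3m. Only 37 of 16653 barcode sequences occurred in more than 1 library. Median mitochondrial shares in astroglial cells were 5.97 to 8.18% at 3m and 1.27 to 2.47% at P3. Sub-cluster 1 held 1156 of 1211 cells from P3 replicate 1, sub-clusters 4 and 12 were mostly cells of P3 replicate 3 with few UMIs, and 182 of the 184 cells of sub-cluster 14 came from 3m replicate 1. All levels below are UMIs per 1000000 of the same sum (CPM). They are not divided by transcript length, because reads were taken from the 3′ end of each transcript.

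Between the ages, the family changed in parts. In astroglial cells 57 members had enough counts for a test, and 19 were called higher and 6 lower at 3m (edgeR's quasi-likelihood test, adjusted p at most 0.05 and absolute log2(fold change) at least 1). Of all 13530 genes tested, 15.8% were called higher and 16.3% lower. The other 35 members had at most 50 UMIs in the 6 astroglial sums together, and 7 of them had none. By family, 3 of 13 type II cadherins were called higher and 1 lower, and 1 of 5 type I cadherins was called lower. Of the delta-1 protocadherins 2 of 4 were called higher, and of the delta-2 protocadherins 2 of 5 were called lower. In the clustered families 11 of 22 *Pcdhb* and 2 of 21 *Pcdhg* genes were called higher, and 1 of 14 *Pcdha* genes was called lower. A total of 11 of the 19 higher members (*Cdh19* and 10 *Pcdhb* genes) passed the filter on low counts through the 3m libraries alone. Another 4 of the 6 lower members (*Cdh13*, *Pcdh8*, *Cdh6* and *Pcdhac2*) passed it through the P3 libraries alone. All of these had to differ, and the counts carry no weight as evidence about the family. The plot of called members shows each library.

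**Figure D1:**
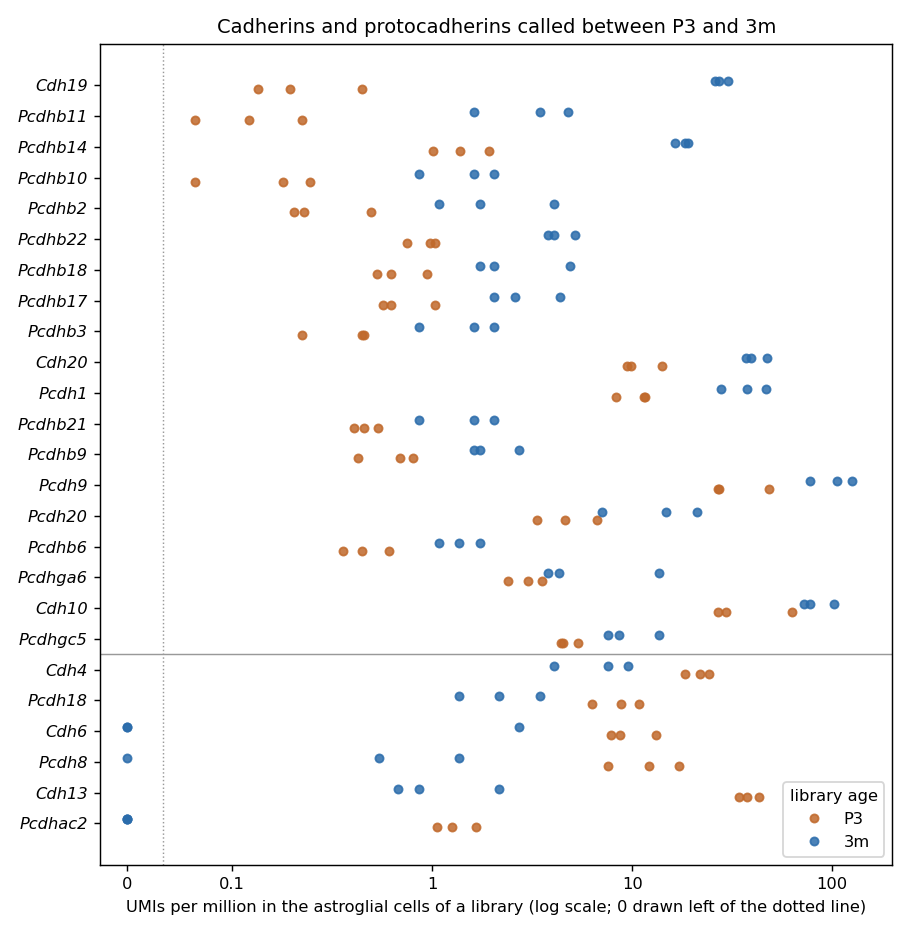
CPM of the 25 called members in the astroglial cells of each library (log axis, zeros drawn at the left edge), with P3 in orange and 3m in blue. The 19 genes above the line were called higher at 3m and the 6 below it lower. *Cdh19* has the widest gap among the higher genes, with 25.8 to 30.2 CPM at 3m and 0.134 to 0.448 at P3.

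*Pcdh10* and *Cdh2*, the members with the highest astroglial levels at both ages, did not pass the test, nor did *Pcdh17*, *Cdh11* and *Pcdhgc3*. *Pcdh10*, a delta-2 protocadherin of growing axons, had 290, 262 and 253 CPM in 3m replicates 1 to 3 and 357, 220 and 234 in the P3 replicates (log2(fold change) 0.18 ± 0.20 (SE), adjusted p = 0.472). *Cdh2*, N-cadherin, the classical adhesion molecule of neural tissue, had 268, 224 and 253 CPM at 3m and 244, 201 and 299 at P3 (0.20 ± 0.17, adjusted p = 0.367). The libraries of the 2 ages overlapped for both. *Pcdh17*, another delta-2 protocadherin, had 158, 123 and 99.2 CPM at 3m and 179, 102 and 101 at P3 (0.18 ± 0.23, adjusted p = 0.552), though it was called higher (2.06) in the sub-clusters that the study set beside non-telencephalic astrocytes, a cell set added once the data had been seen. *Cdh11*, a type II cadherin of mesenchyme and neural tissue, had 59.6, 72.7 and 71.3 CPM at 3m and 81.3, 50.2 and 57.9 at P3 (0.31 ± 0.20, adjusted p = 0.206). *Pcdhgc3*, the C-type gamma gene expressed in most neural cells, varied within each age from 20.7 to 57.7 CPM at 3m and from 26.7 to 53.4 at P3 (adjusted p = 0.59). Among these, P3 replicate 1 was the highest P3 library for *Pcdh10*, *Pcdh17* and *Cdh11* and the lowest for *Pcdhgc3*.

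Of the 7 type II cadherins tested, *Cdh19*, *Cdh20* and *Cdh10* rose and *Cdh6* fell. *Cdh19*, a cadherin best known from cells of the neural crest and Schwann cell lineage, had 30.2, 27.1 and 25.8 CPM in the 3m libraries and 0.134, 0.196 and 0.448 in the P3 libraries, from 123 and 20 UMIs. Its mean was 107-fold higher at 3m (log2(fold change) 6.88 ± 0.35, adjusted p = 1.25e-08), and no library overlapped. *Cdh20*, which lies on the same chromosome (*Cdh20* at chr1:104768529-104995481, *Cdh19* at chr1:110888326-110977584, mm10), had 37.2, 47.2 and 39.4 CPM at 3m and 14.1, 9.47 and 9.89 at P3 (2.09 ± 0.21, adjusted p = 3.6e-06). *Cdh10*, on chromosome 15, had 102, 77.0 and 72.7 CPM at 3m and 62.9, 26.8 and 29.5 at P3 (1.27 ± 0.28, adjusted p = 0.00231). No library overlapped for *Cdh20* or *Cdh10* either, and P3 replicate 1 was the P3 library closest to the adult ones for both. All 3 genes stayed called in each of 17 alternatives. *Cdh19* passed the filter on low counts through the 3m libraries alone, so its adjusted p-value and calls carry no weight as support.

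Oligodendrocyte transcripts moved with age in the same cells. Microglial markers summed to 6.79 to 28.7 CPM in 3m astroglia and 0.224 to 0.490 at P3, and endothelial markers to 0.864 to 2.72 and 1.89 to 12.1. All 6 oligodendrocyte markers were called higher in 3m astroglia, their sum was 708 to 1864 CPM at 3m and 5.45 to 6.41 at P3, and *Mog* and *Opalin* were at 0 in the P3 astroglia. No cell at P3 was annotated as an oligodendrocyte. In adult oligodendrocytes *Cdh19* had 29.4 CPM, so that the astroglial level was 93.5% of it. *Cdh20* reached 155% and *Cdh10* 152.5% of the oligodendrocyte level. For 5 of the markers the same percentage was 0.448 for *Mag*, 0.456 for *Opalin*, 0.509 for *Mog*, 8.53 for *Mobp* and 19.98 for *Mbp*. A *Cdh19* UMI was found in 9.48% of adult astroglial cells and 15.9% of adult oligodendrocytes, at medians of 3631 and 5420 UMIs per cell.

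Promoters from RefSeq (GRCm38.p6, 250 bases before to 50 after the first listed start of a gene, sense strand) were matched for 22 members. They covered 7 of the 10 called members that lie on other chromosomes than the clustered genes, and those of the 4 of them that rose are shown so that their sequence can be read beside their values. Capitals mark TTGGCA on either strand, the half-site of nuclear factor I proteins, which act in astrocyte differentiation. This run occurred in 6 of the 22 members' promoters and in 14.4% of 27025 promoters of the same length. *Cdh20* (chr1:104768270-104768569, plus strand), *Cdh10* (chr15:18820079-18820378, plus strand), *Pcdh20* (chr14:88471347-88471646, minus strand) and *Pcdh9* (chr14:93890630-93890929, minus strand) read as follows.
Cdh20: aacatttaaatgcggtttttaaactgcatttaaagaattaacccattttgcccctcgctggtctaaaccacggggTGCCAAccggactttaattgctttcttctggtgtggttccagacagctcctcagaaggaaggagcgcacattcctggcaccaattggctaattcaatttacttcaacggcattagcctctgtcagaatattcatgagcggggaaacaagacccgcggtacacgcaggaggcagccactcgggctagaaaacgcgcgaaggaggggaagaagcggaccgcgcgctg
Cdh10: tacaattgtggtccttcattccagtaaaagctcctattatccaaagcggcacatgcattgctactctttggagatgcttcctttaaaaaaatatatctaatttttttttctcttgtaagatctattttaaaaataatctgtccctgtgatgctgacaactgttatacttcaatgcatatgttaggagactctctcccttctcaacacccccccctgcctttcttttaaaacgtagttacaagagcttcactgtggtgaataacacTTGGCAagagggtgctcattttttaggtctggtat
Pcdh20: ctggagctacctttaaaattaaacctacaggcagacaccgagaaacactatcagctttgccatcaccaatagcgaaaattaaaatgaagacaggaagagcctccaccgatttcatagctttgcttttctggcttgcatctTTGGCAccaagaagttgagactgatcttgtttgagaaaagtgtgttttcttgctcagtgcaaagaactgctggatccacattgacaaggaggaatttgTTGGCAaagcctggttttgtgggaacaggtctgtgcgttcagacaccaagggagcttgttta
Pcdh9: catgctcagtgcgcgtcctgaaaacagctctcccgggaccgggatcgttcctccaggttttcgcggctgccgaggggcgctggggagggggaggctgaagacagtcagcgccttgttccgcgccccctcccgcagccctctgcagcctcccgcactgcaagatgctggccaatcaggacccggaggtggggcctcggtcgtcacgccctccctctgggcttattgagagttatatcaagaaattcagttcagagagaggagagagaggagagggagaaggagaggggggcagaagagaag

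The 4 promoters differ in composition, with 18 CpG in that of *Cdh20*, 18 in *Pcdh9*, 4 in *Pcdh20* and 2 in *Cdh10*. The run is found 1 time each in *Cdh20* and *Cdh10*, 2 times in *Pcdh20* and not in *Pcdh9*, which says nothing of which factor binds there. The *Cdh10* window begins at 18820079, inside the gene as GENCODE M21 places it (chr15:18818947-19014236). Its run lies after the listed start. The promoters of *Pcdh18*, *Pcdh8* and *Cdh6*, which fell, hold 0 such runs, where 14.4% of all 27025 promoters hold one. Whether the run goes with the direction of change was not tested.

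Among the delta-1 protocadherins, which carry 7 cadherin repeats, *Pcdh1* and *Pcdh9* rose. *Pcdh1* had 46.7, 27.7 and 37.4 CPM at 3m and 11.5, 8.26 and 11.6 at P3 (log2(fold change) 2.01 ± 0.21, adjusted p = 6.22e-06). *Pcdh9* had 126, 77.6 and 106 CPM at 3m and 48.6, 27.3 and 26.9 at P3 (1.77 ± 0.24, adjusted p = 5.92e-05). The adult libraries lay above the P3 libraries for both genes. In adult oligodendrocytes *Pcdh1* was at 3.04 CPM, well under its astroglial level, while *Pcdh9* was at 402 CPM, and the astroglial level of *Pcdh9* was 24.7% of that, beside 19.98% for *Mbp*. The part of oligodendrocyte transcripts in the *Pcdh9* difference was not tested. In 3m replicates 1 to 3 the oligodendrocyte marker sums were 1430, 1864 and 708 CPM, beside 126, 77.6 and 106 CPM of *Pcdh9*.

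The other delta-1 genes were not called. *Pcdh7* had 135, 123 and 168 CPM at 3m and 123, 68.6 and 70.8 at P3, and *Pcdh11x* had 22.5, 31.5 and 38.0 at 3m and 24.8, 18.7 and 21.2 at P3. Both had an adjusted p under the threshold (0.0056 and 0.0117) but a log2(fold change) under 1 (0.89 and 0.72), and their libraries overlapped. *Pcdh7* was called higher without P3 replicate 1 (1.23), after thinning (1.01) and in non-telencephalic sub-clusters alone (2.57). *Pcdh20*, a non-clustered protocadherin outside the delta groups, rose from 6.67, 3.33 and 4.60 CPM at P3 to 14.7, 7.05 and 21.1 at 3m (1.73 ± 0.38, adjusted p = 0.00203).

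Genes of several families fell. *Cdh13*, T-cadherin, which is held in the membrane by a lipid anchor and has no tail to bind catenins, had 0.864, 2.17 and 0.679 CPM at 3m against 43.2, 34.2 and 37.3 at P3, from 6 and 2930 UMIs. Its log2(fold change) was -4.64 ± 0.34 (adjusted p = 2.56e-07). *Pcdh8*, a delta-2 protocadherin, had 3 UMIs in all at 3m against 962 at P3, or 18.5 times the rate at P3 (95% counting interval 6.31 to 89.9, adjusted p = 2.83e-04). *Cdh6*, a type II cadherin, had 5 UMIs at 3m, all in replicate 2 (2.71 CPM), and 13.1, 7.87 and 8.67 CPM at P3 (adjusted p = 0.00199, and 0.139 in cells kept by a stricter filter). For these 3 genes the adult levels lay at or near 0 and every P3 library lay above. All 3 passed the filter on low counts through the P3 libraries alone, so their adjusted p-values carry no weight as support.

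*Pcdh18* and *Cdh4* kept more of their level, on 10 and 31 UMIs at 3m. *Pcdh18*, the delta-2 gene that was highest in pericytes, had 3.46, 2.17 and 1.36 CPM at 3m and 8.82, 6.34 and 10.8 at P3 (-1.74 ± 0.41, adjusted p = 0.00353). *Cdh4*, R-cadherin, the other classical cadherin of the brain, had 9.50, 7.59 and 4.08 CPM at 3m and 24.1, 18.4 and 21.7 at P3 (-1.43 ± 0.27, adjusted p = 7.19e-04). Precursor and cycling markers moved with these genes. Of 5 markers of oligodendrocyte precursors 4 were called lower in 3m astroglia, with sums of 50.1 to 124 CPM at 3m and 530 to 589 at P3, and 3 of 3 cycling markers were called lower. With the cycling sub-clusters 6 and 8 left out, these 5 genes remained called lower and *Pcdhac2* was not tested. The part of precursor transcripts in these differences was not tested. *Cdh13* at P3 was lower in sub-clusters 6 and 8 (30.5 and 25.01 CPM) than in sub-clusters 0 and 1 (55.7 and 53.1).

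Among the members known from glia, vessels or neurons, *Cdh22*, *Pcdh19*, *Pcdh15* and *Pcdhgc4* did not pass the test (adjusted p 0.618, 0.358, 0.228 and 0.154), although *Cdh22* was called lower without 3m replicate 2 (-2.20) and in telencephalic sub-clusters alone (-1.67), and *Pcdh19* in the latter (-1.10), and *Cdh5* and *Pcdh12*, with 27 and 5 UMIs at P3 and 0 at 3m, were too low for one.

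The clustered families went separate ways as sums over all their genes, where no filter applies. The 22 *Pcdhb* genes together had 51.0, 59.1 and 65.2 CPM in the 3m libraries and 16.97, 11.7 and 14.2 in the P3 libraries. The means, 58.4 ± 7.1 (SD, n = 3) and 14.3 ± 2.7, differed 4.09-fold (exact permutation test, two-sided, p = 0.1, the smallest that 3 against 3 libraries allow). The 21 *Pcdhg* genes together had 105.4, 134.5 and 170.5 CPM at 3m and 115.5, 115.5 and 150.5 at P3, with means of 137 ± 33 and 127 ± 20 that differed by less than the spread between libraries (exact permutation test, p = 0.7). The 14 *Pcdha* genes together had no UMI at 3m and 1.79, 2.06 and 1.38 CPM at P3, at least 2.64-fold lower at 3m with a floor of 3 UMIs over the 3 libraries. Within a library the *Pcdhb* sum was 0.484, 0.4395 and 0.3825 of the *Pcdhg* sum at 3m and 0.147, 0.101 and 0.0943 at P3 (exact permutation test, p = 0.1).

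**Figure D2:**
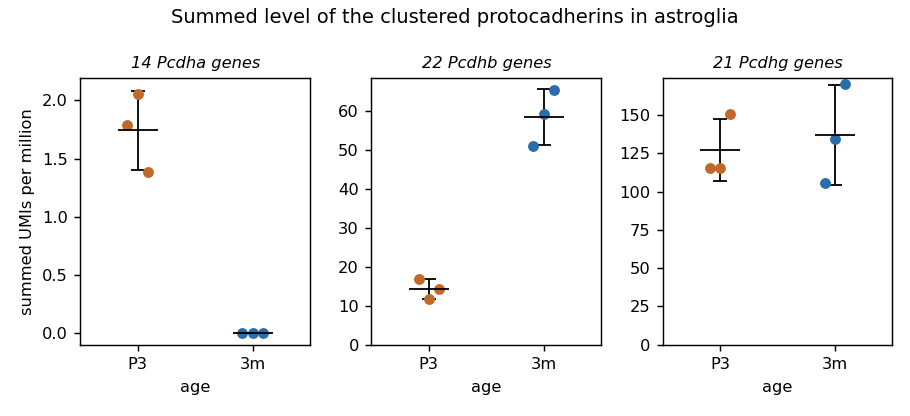
Summed CPM of the *Pcdha*, *Pcdhb* and *Pcdhg* genes in the astroglial cells of each library (points), with the mean and SD of 3 libraries (bars). The 3m libraries lie above the P3 libraries for *Pcdhb* (51.0 to 65.2 against 11.7 to 16.97), overlap them for *Pcdhg* and are at 0 for *Pcdha*.

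How the 3 families were counted differs. In the annotation (GENCODE M21) the last 300 exonic bases were shared with another gene in every coding transcript of 12 of 14 *Pcdha* and 17 of 21 *Pcdhg* genes, and a read in shared exons is assigned to no gene by Cell Ranger. *Pcdha* and *Pcdhg* levels are therefore uncertain, and the sums count only reads that reached unshared sequence. Among *Pcdhb* genes, which have an exon of their own at the 3′ end, this held only for *Pcdhb21*, whose end overlaps *Pcdhb22*.

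*Pcdhb14* (chr18:37447656-37456350) led the rise of the *Pcdhb* genes. It had 16.4, 18.4 and 19.02 CPM at 3m and 1.93, 1.01 and 1.38 at P3 (log2(fold change) 3.85 ± 0.31, adjusted p = 6.03e-07), and it made up 30.7% of the *Pcdhb* UMIs at 3m and 9.95% at P3. Without it the sum was 40.5 ± 5.8 CPM at 3m and 12.8 ± 2.2 at P3, still 3.15-fold apart. The adult mean was higher for each of the 21 *Pcdhb* genes with a UMI in astroglia and for 13 of the 21 *Pcdhg* genes, where 36.4% of all 21345 genes with a UMI in astroglia had a higher adult mean.

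Single *Pcdhb* genes rest on few counts. All that were called higher, except *Pcdhb14*, passed the filter on low counts through the 3m libraries alone. Their adjusted p-values therefore carry no weight as support. Of the other 10 that were called higher, *Pcdhb22* had 5.18, 3.80 and 4.08 CPM at 3m and 1.03, 0.751 and 0.976 at P3 (2.41 ± 0.43, adjusted p = 4.43e-04), and *Pcdhb11* had 14 UMIs at 3m and 10 at P3 despite the deeper P3 libraries (4.70 ± 0.69, adjusted p = 9.67e-05). *Pcdhb2*, *Pcdhb3*, *Pcdhb9*, *Pcdhb10*, *Pcdhb17*, *Pcdhb18* and *Pcdhb21* had 7 to 14 UMIs at 3m and log2(fold changes) of 1.86 to 3.44. Calls were lost when 1 adult library was left out. Without 3m replicate 2 *Pcdhb3*, *Pcdhb9*, *Pcdhb17*, *Pcdhb18* and *Pcdhb21* had adjusted p of 0.0994, 0.0523, 0.075, 0.125 and 0.116, and without 3m replicate 3 *Pcdhb2*, *Pcdhb3*, *Pcdhb9* and *Pcdhb21* had 0.092, 0.129, 0.14 and 0.154. *Pcdhb6* (1.70 ± 0.66, adjusted p = 0.0485) lost its call without each adult library in turn, with adjusted p of 0.109 to 0.165, and also with the replicate block (0.0781), with DESeq2 (0.0751), under the other scalings (0.0525 and 0.0765), with no filter on low counts (0.157) and without cluster 19 (0.0545). *Pcdhga6* (1.48 ± 0.45, adjusted p = 0.0143) had 0.57 (adjusted p = 0.339) without 3m replicate 3, which held 20 of its 32 adult UMIs. These 2 genes were named after their values were seen.

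*Pcdhgc5*, one of the 3 C-type gamma genes that are not chosen at random in neurons, had 8.64, 7.59 and 13.6 CPM at 3m and 4.52, 5.36 and 4.43 at P3 (1.23 ± 0.31, adjusted p = 0.00553). Without 3m replicate 3 its log2(fold change) was 0.87 (adjusted p = 0.0747). *Pcdhac2*, the only *Pcdha* gene tested, had 0 UMIs at 3m and 1.25, 1.67 and 1.06 CPM at P3, at least 2.02-fold lower with the same floor (adjusted p = 0.0214, but 0.0632 without 3m replicate 2 and 0.0571 without 3m replicate 3). *Pcdhac2* passed the filter through the P3 libraries alone, so its adjusted p-value carries no weight as support.

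Within single cells, UMIs of the *Pcdhb* family tended to be of the same gene. Of 8874 P3 astroglial cells, 832 had a *Pcdhb* UMI and 173 had 2 or more. In these, pairs of *Pcdhb* UMIs of 1 cell were of the same gene in 59.9% of 162 pairs in P3 replicate 1, 54.55% of 99 in replicate 2 and 79.25% of 106 in replicate 3, a mean of 64.6 ± 13% (SD, n = 3). Drawn from the summed counts of each library, without regard to cells, 2 UMIs would be of the same gene in 8.32%, 7.95% and 10.6%. For *Pcdhg* genes the shares were 19%, 22.1% and 24.01% in the 3 libraries, against 10.2%, 16.1% and 16.1% from the summed counts. In adult astroglia 21.7% of 23, 34.4% of 32 and 53.3% of 30 *Pcdhb* pairs were of the same gene, against 14.6%, 13.2% and 11.9%. Cells with many UMIs weigh more in these shares, and in P3 cells with exactly 2 *Pcdhb* UMIs the share was 63.25% of 117 pairs.

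Of 41 other genes of the superfamily and its partners, 24 were tested, and 3 were called higher and 3 lower, where 15.8% and 16.3% of all genes were. Among catenins and links to actin, *Vcl* (vinculin, log2(fold change) 2.50, adjusted p = 2.11e-07) and *Jup* (plakoglobin, 2.48, adjusted p = 1.3e-05) rose, while *Ctnnb1* (beta-catenin) fell by 1.44 on the log2 scale (adjusted p = 8.25e-04) and *Ctnna2* (alpha-catenin of neurons) by 1.25 (adjusted p = 1.85e-04). *Fat3*, a giant cadherin, rose (2.04, adjusted p = 3.15e-06). Of the genes that control the clustered locus, *Ctcf* (the insulator protein that loops its promoters to enhancers) fell by 1.31 (adjusted p = 5.33e-05), and the other 5 were not called, with *Setdb1* at -0.93 (adjusted p = 0.00549).

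Along the astroglial pseudotime, a score by which the study ordered 5894 cells from cycling progenitors to adult astrocytes, *Pcdhb* levels were higher in late than in early P3 cells. They were 5.39 CPM in bins 2 to 10 of P3 (7.84, 4.38 and 4.41 in the 3 libraries), 7.86 in bins 11 and 12, 19.4 in bins 13 and 14 (17.3, 17.5 and 23.45) and 55.8 in bins 16 to 19 of 3m (51.1, 49.4 and 64.6). The *Pcdhg* sum went up over the same P3 bins, from 75.4 to 165.5 CPM, but was 141 in the adult bins. *Pcdh1* followed the *Pcdhb* order, with 5.14, 7.30, 14.96 and 39.35 CPM in these 4 groups of bins. *Pcdh10* (154, 183, 329 and 275 CPM) and *Pcdh17* (83.9, 79.8, 174 and 117) were highest in the last P3 bins.

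Members that were lower in adults did so at different points. *Cdh4* was already lower in late P3 cells, with 27.6, 23.03, 11.6 and 7.13 CPM. *Cdh13* instead was highest in the last P3 bins, with 27.9, 28.0, 53.4 and 1.24 CPM, and each P3 library showed the same order of the first and the last bins (30.95 and 54.4, 25.9 and 52.5, 27.9 and 53.7). *Pcdh8* had 1.899, 2.65, 8.16 and 0.62 CPM. *Cdh19* stayed under 0.2 CPM in every group of P3 bins and had 26.65 CPM in the adult ones, while *Cdh20* was level within P3 (13.3, 10.6 and 11.4) and had 35.9 in adults. Pseudotime was made from the same cells and genes, so these values are a description with no test. Bins of late and early P3 cells also differ in depth, with medians of 6632 UMIs per cell in bin 13 and 20736 in bin 2.

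**Figure D3:**
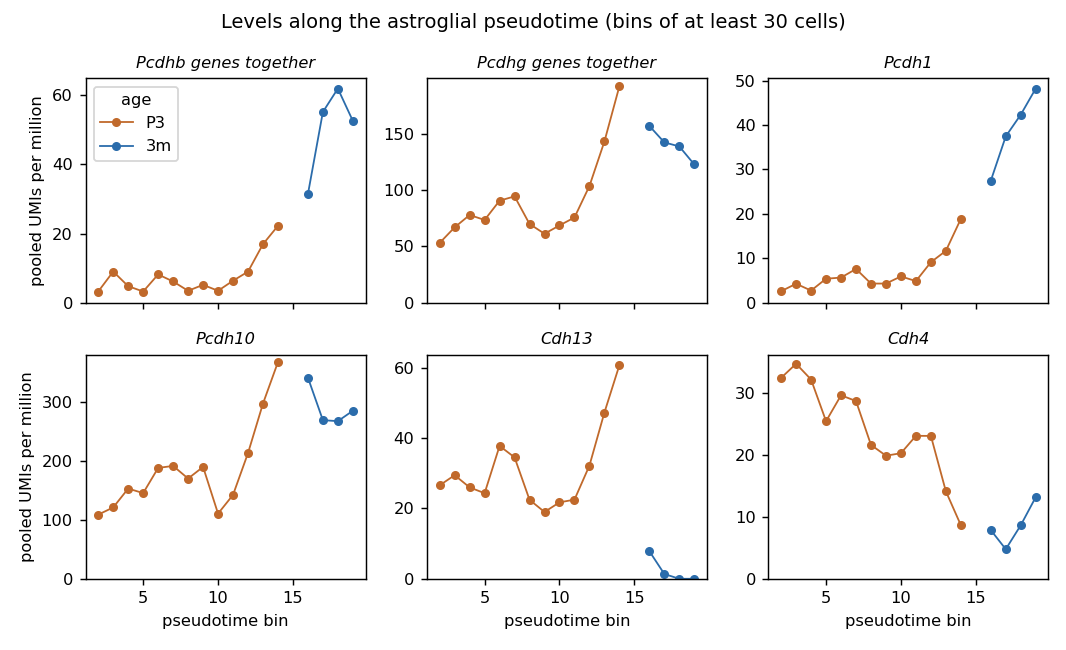
Pooled CPM by pseudotime bin for the summed *Pcdhb* and *Pcdhg* genes and 4 members, in bins of at least 30 cells, with P3 (bins 2 to 14) in orange and 3m (bins 16 to 19) in blue. *Pcdhb* reaches 22.2 CPM in bin 14 and 61.9 in bin 18, while *Cdh13* has 60.7 CPM in bin 14 and 1.24 over bins 16 to 19.

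Astroglial sub-clusters differed in their cadherins by region. The study set sub-clusters 1, 9 and 11 of P3, which resembled sub-cluster 0, among telencephalic astrocytes. Here these, sub-cluster 0 and the other sub-clusters of its main trajectory (2, 6 and 8 of P3, 7 and 14 of 3m) are called telencephalic. The study set the other sub-clusters beside non-telencephalic astrocytes of a reference atlas, possibly carried over from adjacent regions. Sub-clusters 4 and 12 were left out of these levels for their few UMIs, though the test in non-telencephalic sub-clusters alone kept them. At P3 *Pcdh8* had 5.21, 5.68 and 5.75 CPM in telencephalic cells and 51.1, 38.5 and 51.8 in non-telencephalic cells (sub-clusters 3, 5, 10 and 15). *Cdh4* (18.5 and 33.6 CPM pooled) and *Cdh2* (222 and 342) were also higher in the pooled non-telencephalic cells. None of these genes was higher in every non-telencephalic sub-cluster than in every telencephalic one. *Pcdh8* had 13.45 CPM in non-telencephalic sub-cluster 15 and 15.7 in telencephalic sub-cluster 9. *Cdh2* had 207 CPM in non-telencephalic sub-cluster 15 and 258 and 283 in telencephalic sub-clusters 0 and 1, and *Cdh4* had 29.1 in the cycling sub-cluster 6 and 27.5 to 29.5 in sub-clusters 3, 5 and 15. Sub-cluster 10 stood out, with 552 CPM of *Cdh2*, 147 of *Pcdh8* and 68.9 of *Cdh4*, and 3.02 of *Cdh13*. Its 332 cells came from all P3 libraries, with 35, 57 and 240 cells.

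The reverse held for several delta-protocadherins and type II cadherins and for *Cdh13*. In P3 telencephalic and non-telencephalic cells, *Pcdh7* had 98.95 and 20.4 CPM, *Pcdh17* 143 and 37.9, *Pcdh19* (a delta-2 gene, mutated in an X-linked epilepsy) 14.7 and 1.38, *Cdh20* 12.8 and 1.84, *Cdh10* 43.2 and 14.8, and *Cdh13* 42.5 and 16.5. For these 6 genes each of the 3 libraries showed the same order. In adults the gap was not seen for pooled *Pcdh17* (119 and 140 CPM) or *Pcdh7* (148 and 122). *Cdh20* was higher in the pooled non-telencephalic cells (34.8 and 62.6), as was *Pcdh19* (6.05 and 15.4). For *Cdh20* this held in sub-cluster 13 (76.85 CPM) but not in sub-cluster 16 (16.1 CPM from 4 UMIs). Telencephalic sub-clusters 7 and 14 had 35.4 and 33.6 CPM of it. *Pcdh19* had 17.8 CPM in sub-cluster 13 and 8.04 from 2 UMIs in sub-cluster 16. *Pcdh20* had 18.1 CPM in adult telencephalic cells and 1 UMI (0.858 CPM) in the non-telencephalic ones. *Cdh19* (26 and 31.7 CPM) and the *Pcdhb* sum (56.5 and 66.03) were near in both. The adult non-telencephalic cells were 17, 261 and 50 in the 3 libraries, and sub-clusters were drawn from these same counts, so no test is given.

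**Figure D4:**
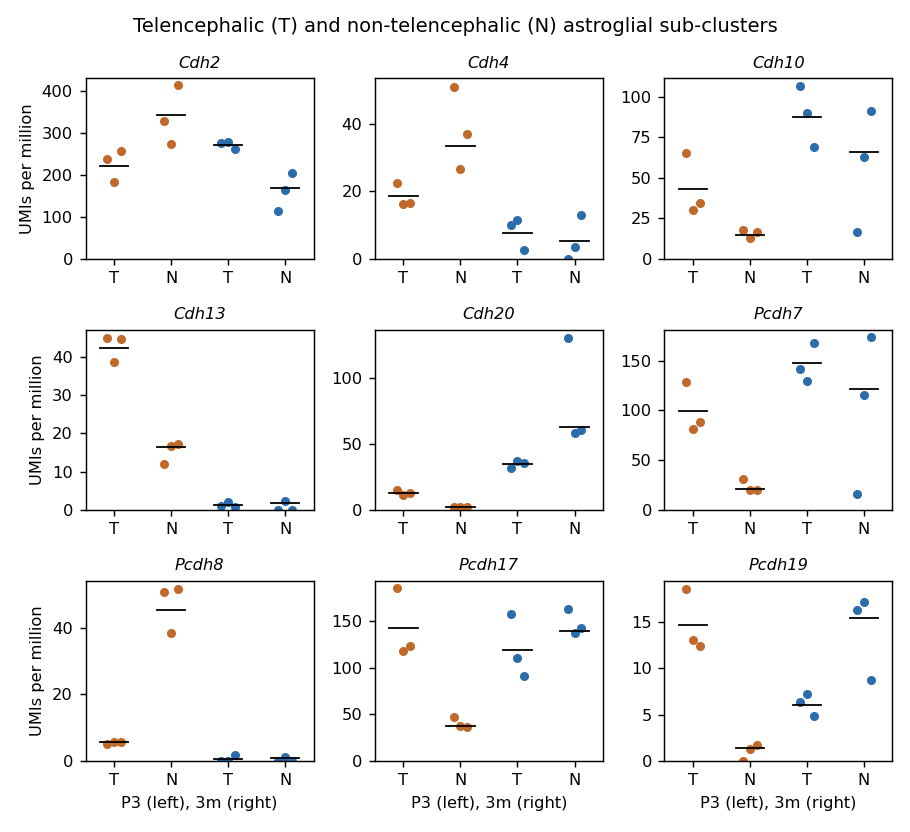
CPM of 9 members in each library (points) and pooled (lines) in telencephalic (T) and non-telencephalic (N) astroglial cells at P3 (orange) and 3m (blue). *Pcdh8* is higher in N than in T cells at P3 (45.55 against 5.54 CPM pooled), *Pcdh17* lower (37.9 against 143), and at 3m *Pcdh8* is near 0 in both. The first N point at 3m rests on 17 cells.

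In oligodendrocytes, neurons and blood vessels another member led than in astroglia. In oligodendrocyte precursors and microglia the leading members were those of astroglia (*Pcdh10*, *Cdh2* and *Pcdh17*), though not in the same order. In oligodendrocytes, all of them adult, *Pcdh9* led with 444, 394 and 342 CPM in the 3 libraries and a UMI in 79.55% of 1731 cells. *Cdh2* followed with 98.8 CPM pooled and *Pcdh17* with 61.3, while *Pcdh10*, the leading member in astroglia, had 42.2, and *Pcdh7* 14.5. *Cdh13* and *Cdh4* were at 0.536 and 0.357 CPM there.

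Oligodendrocyte precursors at P3 (94 cells) were set apart by *Pcdh15*, a protocadherin of hair-cell tip links that also marks precursors, with 176, 51.9 and 130 CPM in the 3 libraries against 1.00 pooled in P3 astroglia and 4.20 in oligodendrocytes. They also had 183 CPM of *Pcdh10*, 165 of *Cdh2*, 165 of *Pcdh17* and 80.7 of *Cdh13*. The 13 precursors of 3m had 170 CPM of *Cdh13* from 12 UMIs. The 53 neurons, all from P3, had 185 CPM of *Pcdh7* and 85.5 of *Pcdh8* (30 UMIs). Microglia were low in every member, at most 20.8 CPM, which was *Cdh2* with 24 UMIs in 184 cells.

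Blood vessels had their own set. *Cdh5*, VE-cadherin, which seals endothelial junctions, had 273, 237 and 257 CPM in endothelial cluster 7 of P3 and 411, 331 and 428 in endothelial cluster 17 of 3m, and a UMI in 94.9% and 79.75% of their cells at medians of 26510 and 5934 UMIs. It was found in 0.116% of adult oligodendrocytes, which lack it, at a median of 5420. *Pcdh12*, VE-cadherin-2, had 54.1, 40.9 and 36.55 CPM in cluster 7 and 7.115, 0 and 2.43 in cluster 17, from 822 and 5 UMIs. *Pcdh19* stood at 40.4 and 69.9 CPM in these clusters, *Pcdh18* at 73.2 and 47.96, *Pcdh1* at 81.4 and 56.9 and *Cdh2* at 190 and 70.7. Pericyte and smooth muscle markers summed to 2804 CPM in cluster 7 and 6798 in cluster 17, beside 4149 and 11070 of endothelial markers. The former summed to 16230 CPM in pericytes. The part of pericyte transcripts in the levels of these clusters was not tested. The clusters were drawn from these same counts and each held almost only cells of 1 age, so none of this was tested. In clusters 12 and 13, 346 of 349 and 282 of 339 P3 cells came from replicate 3. Pericytes at P3 (628 cells) had 368, 308 and 323 CPM of *Pcdh18*, a UMI of it in 77.55% of cells, 128 CPM of *Cdh11* and 71.3 of *Pcdh1*, while *Pcdh10* was at 17.5.

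**Figure D5:**
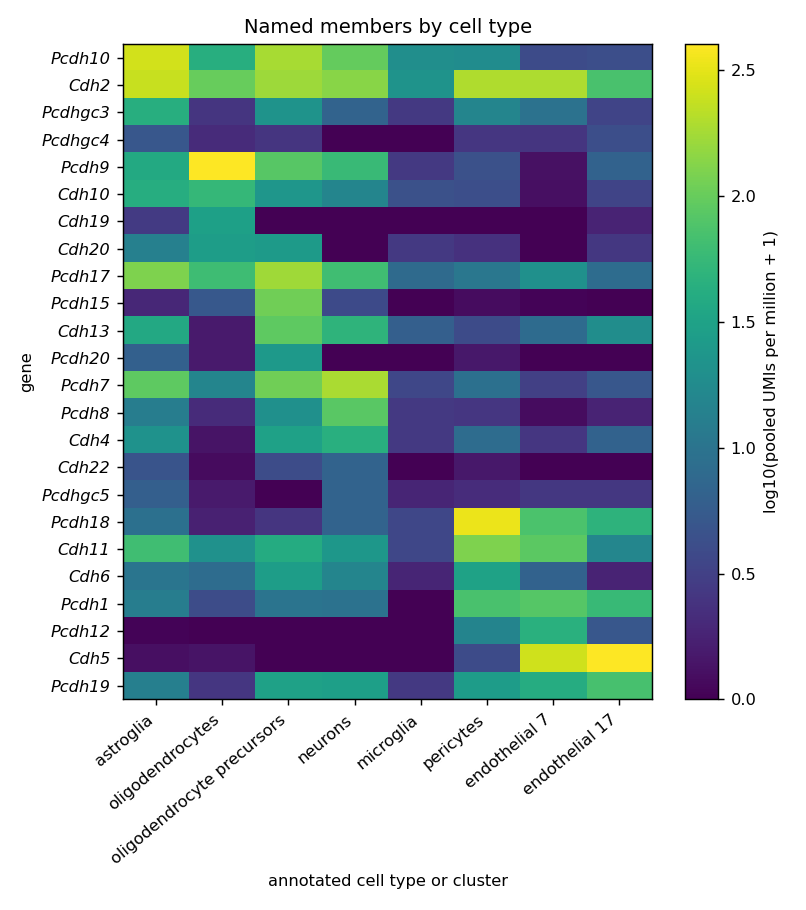
Pooled levels of 24 named members (rows, without single *Pcdha* and *Pcdhb* genes) in 8 annotated types or clusters (columns), as log10(CPM + 1), both ages together. *Pcdh9* is brightest in oligodendrocytes (402 CPM), *Pcdh18* in pericytes (335) and *Cdh5* in endothelial cluster 17 (401).

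With all barcodes of a library summed, 66 members were tested, and 17 were called higher (18.4% of 15407 genes) and 7 lower (16.1%) at 3m. In such sums fewer cells of a type and less RNA per cell cannot be told apart. *Pcdh9* had 286, 246 and 217.5 CPM at 3m and 34.45, 23.8 and 19.96 at P3 (log2(fold change) 3.46 ± 0.22, adjusted p = 3e-06), and 75.55% of its adult UMIs lay in oligodendrocytes. *Pcdh12* had 0.570, 0 and 0.183 CPM at 3m and 12.9, 4.97 and 8.81 at P3 (adjusted p = 2.75e-04), and 89.7% of its P3 UMIs lay in endothelial cluster 7. *Pcdh12* passed the filter on low counts through the P3 libraries, so its adjusted p-value carries no weight as support. *Pcdh15* rose (1.48 ± 0.35, adjusted p = 0.00634) with 56.6% of its adult UMIs in oligodendrocytes, but after thinning its call was lost (0.94, adjusted p = 0.0719), and in astroglia it was not called. *Cdh19* (7.32), *Cdh20* (2.185), *Cdh10* (1.25) and *Pcdhb14* (2.79) rose here too, and *Cdh13* (-3.37), *Cdh4* (-2.45), *Pcdh8* (-3.05) and *Pcdh18* (-2.33) fell. *Cdh19* had only 20 UMIs at P3 over all barcodes and passed the filter through the 3m libraries, so its call carries no weight. For the other members the age through which they passed was not worked out over all barcodes. *Pcdh1*, which rose in astroglia, was not called over all barcodes. *Cdh10* was no longer called without 3m replicate 1 (0.94, adjusted p = 0.035).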

How the data were processed

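The deposited table holds raw UMI counts per gene and barcode, which the authors made with Cell Ranger on mm10, and the deposited cell metadata hold their Seurat clusters, cell type names and Slingshot pseudotime. The submitters' processing notes name Cell Ranger and Seurat 3.1.1. No column was left unassigned. The annotated cells were those with over 500 genes and less than 10% mitochondrial UMIs, and no step against doublets was added here. Counts were summed per library over astroglial cells or over all barcodes and tested for age with edgeR 4.0.16 in R 4.3.3 (quasi-likelihood test, TMM scaling, filterByExpr with a minimum count of 10, Benjamini-Hochberg adjustment over all genes tested). This code was checked on simulated counts. The labels name separate samples but no sequencing batch, and p-values measure the spread between these samples, which may be partly technical. Clusters, sub-clusters and pseudotime are described without a test. Counting intervals and floors (3 UMIs) cover counting error only.

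The members and gene lists were chosen with earlier results of these data known. Named genes are called members (at most the 20 with the largest change), the 3 members with the highest level in each type of at least 50 cells, and a list of members known from glia, vessels or neurons. Gene models came from GENCODE M21. DESeq2 1.42.0, other scalings, filters, cell sets and thinned counts were alternatives.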

Additional observations from a re-analysis of the deposited data

How the results depend on the processing

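The adult sums were shallow, and alternatives that removed counts or cells tested fewer members. Against 19 members called higher and 6 lower in astroglia, thinning every library to the smallest left 8 higher and 2 lower (20 members tested), telencephalic sub-clusters alone 12 higher (45 tested), the stricter filter on cells 9 higher, and non-telencephalic sub-clusters alone, a cell set added once the data had been seen, 8 higher and 3 lower (18 tested). The stricter filter left only 12 astroglial cells with 50876 UMIs in 3m replicate 1. Leaving out 1 library gave 8 to 20 higher, and without any P3 library 11 of the 19 were not tested. Over all barcodes, 17 higher became 5 after thinning, 11 with barcodes past the filter on cells, and 11 to 18 with 1 library left out. Without scaling beyond library totals, the split over all barcodes was 13 higher and 10 lower, against 17 and 7, and in astroglia the median log2(fold change) over every tested gene moved from -0.0445 to -0.237.

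Of the named members' values under each alternative, 429 kept their direction and side of the threshold, 18 lost the call, 7 gained it and 10 changed sign, all of the latter in members not called. *Pcdhb6* and *Pcdhga6*, named later, are not in this tally and lost their calls in 9 and 2 alternatives. The calls gained were of *Pcdh7* (3 alternatives), *Cdh22* (2), *Pcdh19* and *Pcdh17*. Without scaling *Cdh2* had -3.7e-05, *Pcdh10* -0.011 and *Pcdh17* -0.0099. *Cdh2* had -0.64 and *Pcdh17* 2.06 in non-telencephalic sub-clusters, *Pcdh17* -0.077 in telencephalic ones, and *Pcdh17* and *Pcdhgc4* -0.27 and -0.23 under the stricter filter. With 1 library left out, *Cdh22* ranged from -2.20 to 0.011, *Pcdh17* from -0.035 to 0.51, *Pcdhgc3* from -0.165 to 0.46 and the *Pcdhg* difference (3m minus P3) from -7.22 to 25.3 CPM. The causes were not tested.

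With the replicate block, 18 members were called higher and 6 lower in astroglia, and 17 and 7 over all barcodes. Deviations of same-numbered libraries correlated at 0.206, 0.0993 and 0.039 in astroglia and 0.481, 0.44 and -0.00491 over all barcodes, so the numbers were not taken to pair the samples, and not every library correlated best with its own number.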
